A study of Mus musculus with 32 samples.

Results

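Besides LAG-3, microglia and the cells around them use other inhibitory immune checkpoints. Followed here were 10 genes of this kind or related to it: the receptor genes *Havcr2*, *Pdcd1*, *Vsir*, *Sirpa*, *Lilrb4a*, *Cd200r1* and *Cd200r4* and the ligand genes *Cd274*, *Lgals9* and *Cd47*. *Cd200r4*, a paralog of *Cd200r1* whose product pairs with an activating adaptor, is included in all counts of members. The 10 genes were taken by symbol, and their Ensembl identifiers were looked up among the 74021 identifiers of the deposited tables. All 10 were present in each of the 3 tables and all 10 passed the filter on low counts in each. The question addressed was whether other checkpoints move with LAG-3, with disease stage or with the loss of LAG-3. RNA was measured, so nothing here gives the amount of receptor on the cell surface.

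An inhibitory checkpoint is a receptor on an immune cell that dampens activation when it meets its ligand on a neighbouring cell. Many such receptors carry a tyrosine in a short cytoplasmic motif, which recruits the phosphatases SHP-1 and SHP-2 or SHIP-1 once it is phosphorylated. In the central nervous system the best known pairs are SIRPα on microglia with CD47, the "don't eat me" signal that restrains phagocytosis, and CD200R1 on microglia with CD200 on neurons.

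The SOD1G93A mouse carries a mutant human SOD1 transgene and is a model of amyotrophic lateral sclerosis. Microglia were collected by cell sorting as CD11b+/CD45int cells of the lumbar cord. The first experiment held 4 WT libraries from non-transgenic mice, whose age is not given in the sources used here, and 5 libraries each of SOD1G93A microglia low or high in surface LAG-3 at postnatal day 140 (P140). The second held microglia of SOD1G93A mice that were LAG-3+/+ or LAG-3-/- at P120 and P140, with 3 libraries in each of the 4 groups. The third held whole lumbar cord of both genotypes at P140, with 3 libraries each. Every LAG-3+/+ and LAG-3-/- group carried the SOD1 transgene, so there is no LAG-3 knockout without disease. The Lag3tm1Doi allele is germline, so LAG-3 is lacking in every cell type, T cells included. The high and low fractions were split by fluorescence within the same disease, so they are fractions and not separate genotypes. The sources used here do not say how many animals went into a library, and p-values therefore measure the spread between libraries, which may be partly technical.

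Of the 10 coding sequences, 3 held the letters of the inhibitory tyrosine motif in their last 150 codons. These stretches are shown because many inhibitory receptors carry such a motif. The longest complete coding sequence of each gene in GENCODE vM39 (GRCm39) was searched for a codon of serine, isoleucine, valine or leucine, any codon, a tyrosine codon, any 2 codons and a codon of isoleucine, valine or leucine, within the last 150 codons. Each stretch is written 5′ to 3′ on the coding strand with the tyrosine codon in capitals. *Sirpa* had 3, at tyrosine codons 440, 481 and 505 of 513, *Lilrb4a* had 2, at codons 300 and 322 of 335, and *Pdcd1* had 1, at codon 225 of 288.
Sirpa codon 440: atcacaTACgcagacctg
Sirpa codon 481: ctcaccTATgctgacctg
Sirpa codon 505: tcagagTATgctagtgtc
Lilrb4a codon 300: attgtcTACgcccaggta
Lilrb4a codon 322: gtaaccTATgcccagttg
Pdcd1 codon 225: gtggccTATgaggagctg
The other 7 members had no match in this window, and neither had *Lag3*. A match is a matter of letters: 49.7% of 21521 coding sequences held at least 1 somewhere, while 5.33% held at least 2 in their last 150 codons, as *Sirpa* and *Lilrb4a* did. The share with at least 1 in that window, as in *Pdcd1*, was not counted. The window was not limited to the cytoplasmic part. The switch-type motif with threonine in the first place was not searched.

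Levels are given as counts per 1000000 (CPM), scaled by edgeR's TMM factors within each table. Library totals of rounded counts ranged from 9403286 to 22850356 in the LAG-3-sorted table, from 23981240 to 49512341 in the stage table and from 19429873 to 26994340 in the cord table. Libraries also differed in how strongly counts followed transcript length. In log2 units per doubling of length, relative to the table's mean library, this slope was -0.395 and -0.532 in WT replicates 1 and 4. In WT replicates 2 and 3 it was -0.0102 and -0.112, in LAG-3-low libraries 0.0299 to 0.119 and in LAG-3-high libraries 0.124 to 0.157. It was -0.263 to -0.129 in P140 LAG-3+/+ microglia, -0.114 in P140 LAG-3-/- replicate 1 and 0.0608 to 0.116 in the other 8 libraries of the stage table. In the cord it was 0.115 to 0.152 in LAG-3+/+ and -0.198 to -0.0740 in LAG-3-/-. The 9 microglia markers found summed to between 16389 and 44622 CPM in sorted libraries, and they and some other marker classes are given beside the comparisons. The 10 neutrophil markers summed to 5972 to 70511 CPM in WT, 22825 to 66376 CPM in LAG-3-low and 3.48 to 9.67 CPM in LAG-3-high libraries. T cell markers summed to at most 8.78 CPM in every sorted library, with *Cd3e* at 0 throughout.

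By genotype and by sort *Lag3* followed its labels. In LAG-3+/+ microglia it was at 62.9, 61.7 and 53.4 CPM at P120 and at 28.1, 24.5 and 25.7 CPM at P140. The ages did not overlap, and this lower level at P140 did not pass by edgeR (log2 fold change -1.19 ± 0.52, adjusted p = 0.136). In LAG-3-/- microglia it was at 0.163, 0.462 and 0.251 CPM at P120 and at 0.158, 0.0239 and 0.336 CPM at P140. LAG-3-/- cord kept 5.72, 5.60 and 5.50 CPM against 74.5, 43.4 and 61.4 CPM in LAG-3+/+ cord. By sort, *Lag3* was at 1.07, 6.88, 9.99 and 0.508 CPM in WT, 34.8 to 57.8 CPM in LAG-3-low and 146 to 195 CPM in LAG-3-high libraries, a difference that the sort itself made.

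Per kilobase of transcript, the only scale on which genes are set against each other here, *Sirpa* led in P120 LAG-3+/+ microglia with 470 ± 59.5 CPM per kb (SD, n = 3). *Lilrb4a* followed with 419 ± 134, and the SDs of these neighbours overlapped. *Lgals9* (172 ± 22.5) came next, then *Vsir* (116 ± 8.71) and *Havcr2* (103 ± 8.63), whose ranges of mean ± SD also touched. *Cd47* had 85.1 ± 9.41 and *Pdcd1* 61.4 ± 16.3 CPM per kb. At the low end stood *Cd200r1* with 21.1 ± 6.17, *Cd274* with 15.3 ± 3.26 and *Cd200r4* with 7.27 ± 2.24. The order was another in WT microglia, where *Sirpa* (293 ± 82.4), *Vsir* (185 ± 20.5) and *Cd47* (173 ± 11.5) led, while *Lilrb4a* had 34.1 ± 26.7, *Pdcd1* 11.6 ± 10.2, *Cd274* 0.790 ± 0.711 and *Cd200r4* no count. In P140 LAG-3+/+ cord *Cd47* (66.9 ± 3.25) and *Sirpa* (66.2 ± 3.87) stood level, and each of the other 8 members had a mean between 1.06 and 17.6 CPM per kb. These levels divide by the length of the canonical transcript. That of *Cd47* is 1.627 kb long, while all its transcripts hold 9635 distinct 31-base words. For *Lilrb4a* the values are 1.462 kb and 5660 words. Longer transcripts would give lower levels per kb, so the order of genes is uncertain.

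Within diseased microglia, LAG-3-high cells held more *Sirpa* and *Cd200r4* RNA and less *Cd47* RNA than LAG-3-low cells. These 3 of 10 members passed edgeR's quasi-likelihood test at a Benjamini-Hochberg adjusted p under 0.1 over the 16508 genes tested, where 4.39% of all genes passed. The median log2 fold change of the members was 0.69, beside -0.02 over all genes. By level, 6 members did not overlap between the fractions, as did 15.5% of all genes.

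*Sirpa* (ENSMUSG00000037902, chr2:129434039-129474148, plus strand, GRCm39) encodes the receptor for CD47 and was at 2829, 2680, 2762, 2819 and 3142 CPM in LAG-3-high libraries. LAG-3-low libraries held 1335, 1429, 1509, 1464 and 1771 CPM. Every LAG-3-high library lay above every LAG-3-low library, with a log2 fold change of 0.92 ± 0.16 (SE; adjusted p = 0.00578). Its ligand moved the other way. *Cd47* (ENSMUSG00000055447, chr16:49620896-49735373, plus strand) was at 141, 107, 148, 136 and 134 CPM in LAG-3-high and at 188, 234, 245, 243 and 161 CPM in LAG-3-low libraries. The fractions did not overlap, and *Cd47* fell by 0.68 ± 0.16 on the log2 scale (adjusted p = 0.0310). Without LAG-3-low replicate 3 or LAG-3-high replicate 2 the adjusted p of *Cd47* was 0.103 and 0.102.

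*Cd200r4* (ENSMUSG00000062082, chr16:44632096-44659513, plus strand) is a paralog of the inhibitory receptor gene *Cd200r1*. Its product is known to pair with the activating adaptor DAP12, so it is related to a checkpoint by sequence rather than by action. It was at 94.6, 73.9, 54.7, 70.8 and 78.6 CPM in LAG-3-high and at 31.7, 30.4, 15.8, 14.1 and 12.6 CPM in LAG-3-low libraries. All LAG-3-high libraries lay above all LAG-3-low libraries (log2 fold change 1.83 ± 0.36, adjusted p = 0.0185). *Cd200r1* itself (ENSMUSG00000022667, chr16:44586096-44615343, plus strand) was at 36.0 to 47.9 CPM in LAG-3-high and 14.2 to 29.3 CPM in LAG-3-low libraries, without overlap and without passing the test (adjusted p = 0.855). Of the 31-base words of *Cd200r4* transcripts, 9.25% also occurred in other genes, and of those of *Cd200r1* 4.02%, so a small part of their reads could be split between paralogs.

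*Havcr2* and *Cd274* also did not overlap between the fractions and did not pass. *Havcr2* (ENSMUSG00000020399, chr11:46345673-46374149, plus strand) encodes TIM-3, an inhibitory receptor of T cells and myeloid cells. It was at 374, 288, 306, 253 and 329 CPM in LAG-3-high and at 208, 204, 201, 214 and 238 CPM in LAG-3-low libraries. Every high library exceeded every low library by level, with a log2 fold change of 0.54 ± 0.19 and an adjusted p of 0.182. *Cd274* (ENSMUSG00000016496, chr19:29344529-29365495, plus strand) encodes PD-L1, the ligand of PD-1, and was at 92.9, 64.9, 114, 86.9 and 72.5 CPM in LAG-3-high against 56.1, 45.5, 25.2, 43.2 and 35.1 CPM in LAG-3-low libraries. Its log2 fold change was 1.07 ± 0.44 (adjusted p = 0.308). A fit of these 10 libraries alone, without the more variable WT libraries, passed both genes (*Havcr2* 0.47, adjusted p = 0.00638; *Cd274* 0.99, adjusted p = 0.00856) together with *Pdcd1* and *Cd200r1*, for 7 members and 3467 genes in all. The neutrophil marker sums given above differ between the fractions in the same libraries. Monocyte and border macrophage markers summed to 83.5 to 154 CPM in LAG-3-high and 232 to 622 CPM in LAG-3-low libraries, and astrocyte markers to 24.6 to 67.4 and 2.14 to 12.9 CPM. Length slopes also separated the fractions, at 0.124 to 0.157 in LAG-3-high and 0.0299 to 0.119 in LAG-3-low libraries. The transcripts of *Sirpa*, *Cd200r4* and *Cd47* are 4.566, 1.812 and 1.627 kb long. The part of these markers was not tested, nor was that of length beyond the fits with offsets for transcript length and GC content. Those offsets moved the median of all genes by 0.0043 in this comparison, and the members' values under them are not given here.

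*Pdcd1* (ENSMUSG00000026285, chr1:93966027-93980312, minus strand), which encodes PD-1, the exhaustion receptor first described on T cells, was at 156 to 253 CPM in LAG-3-high and 77.4 to 166 CPM in LAG-3-low libraries. The fractions overlapped through LAG-3-high replicate 5 and LAG-3-low replicate 3. *Lilrb4a* (ENSMUSG00000112148, chr10:51367027-51372707, plus strand), an inhibitory receptor of myeloid cells, ranged from 792 to 1270 and from 646 to 991 CPM. *Lgals9* (ENSMUSG00000001123, chr11:78853800-78875798, minus strand), which encodes galectin-9, a ligand of TIM-3, ranged from 234 to 351 and from 215 to 303 CPM. *Vsir* (ENSMUSG00000020101, chr10:60182630-60208463, plus strand), which encodes VISTA, a checkpoint of myeloid and T cells, ranged from 415 to 559 and from 462 to 685 CPM. These 4 members overlapped between the fractions and did not pass the test.

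**Figure D1:**
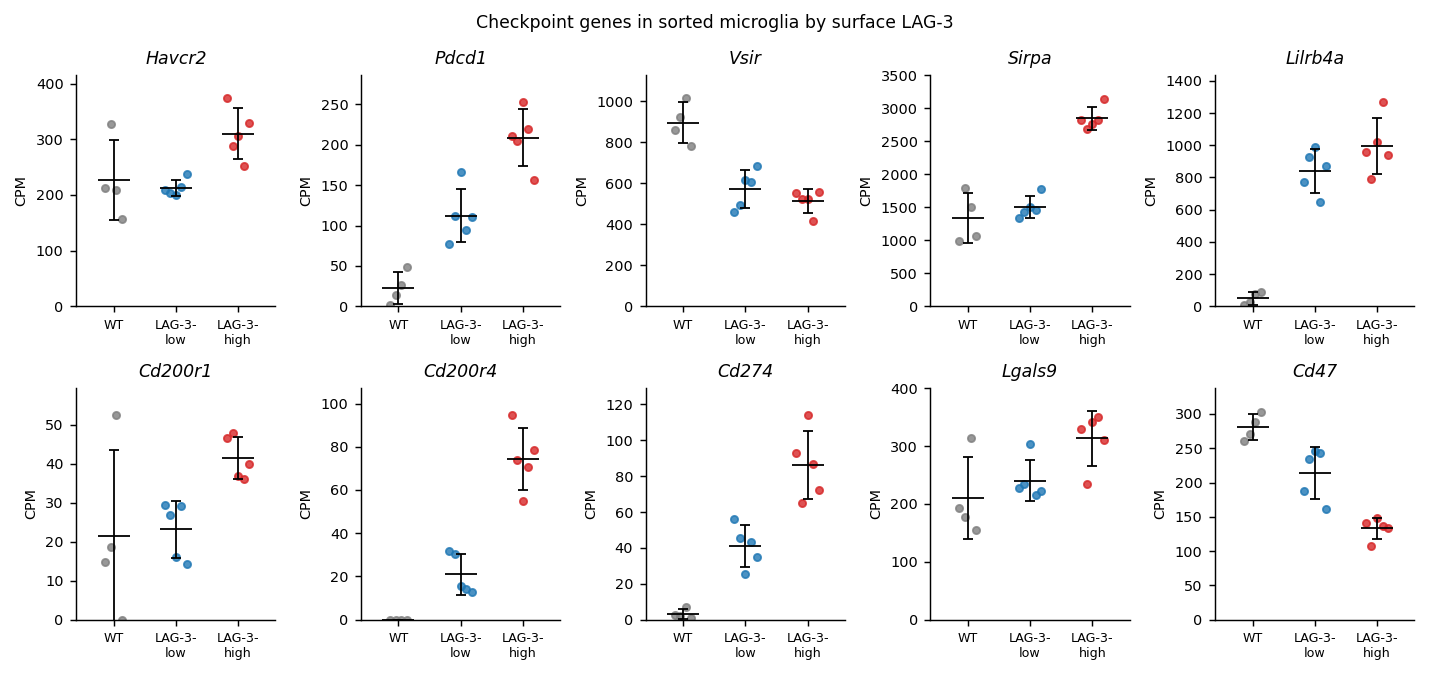
Level (CPM, linear axes from 0) of each checkpoint gene in the 14 LAG-3-sorted microglia libraries; points are libraries, and bars show the mean and SD of each group (4 WT libraries, 5 of either fraction). *Cd200r4* is at 0 in all 4 WT libraries, *Sirpa* separates LAG-3-high from both other groups, and all 5 LAG-3-high libraries lie lowest for *Cd47*.

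Set against WT microglia, both SOD1G93A fractions held far more *Cd274*, *Pdcd1*, *Cd200r4* and *Lilrb4a* RNA and less *Vsir* RNA. In LAG-3-high against WT 8 members passed, where 30.3% of all genes passed, as did 5 in LAG-3-low against WT, where 24.9% passed. The median of the members was 1.02 in the first (all genes -0.08) and 0.18 in the second (all genes 0.04). By level 7 and 6 members did not overlap with WT, beside 20.9% and 15.7% of all genes. Microglia markers summed to 32907 to 38200 CPM in WT, 16389 to 24661 CPM in LAG-3-low and 24063 to 26230 CPM in LAG-3-high libraries. Of the 9 markers, 7 were lower in LAG-3-high and 8 in LAG-3-low than in WT. Of the 10 neutrophil markers, 9 were lower in LAG-3-high and 4 higher in LAG-3-low. Monocyte and border macrophage markers summed to 39.9 to 739 CPM in WT, 232 to 622 CPM in LAG-3-low and 83.5 to 154 CPM in LAG-3-high libraries. Of these 8 markers, 4 were lower in LAG-3-high and 1 higher in LAG-3-low. The part of these markers in the differences from WT was not tested. The 2 comparisons share the WT libraries, so their values stand side by side and are not independent.

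*Cd274* was at 2.35, 2.09, 7.23 and 0.825 CPM in WT microglia. The lowest diseased library held 25.2 CPM, and the log2 fold change was 4.78 ± 0.57 (adjusted p = 6.92e-05) in LAG-3-high and 3.71 ± 0.54 (adjusted p = 0.000648) in LAG-3-low cells. *Lilrb4a* was at 9.74, 24.1, 75.6 and 90.2 CPM in WT, and all 10 diseased libraries lay between 646 and 1270 CPM. It rose by 4.32 ± 0.53 (adjusted p = 9.58e-05) and 4.07 ± 0.53 (adjusted p = 0.000308) on the log2 scale. *Lilrb4a* shares 55.1% of its 31-base words with other genes, 38.8% with *Lilrb4b* alone, so its level and that of *Lilrb4b* are uncertain one by one.

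*Pdcd1* was at 1.73, 14.03, 26.3 and 49.0 CPM in WT. All diseased libraries were higher, with log2 fold changes of 3.20 ± 0.63 (adjusted p = 0.00335) in LAG-3-high and 2.30 ± 0.61 (adjusted p = 0.0204) in LAG-3-low cells. *Cd200r4* had no count in any of the 4 WT libraries. Against a floor of 3 counts in the shallowest WT library, its mean level was at least 285-fold higher in LAG-3-high and at least 79.98-fold higher in LAG-3-low microglia. *Cd200r1* was at 14.9, 18.6, 52.3 and 0 CPM in WT, a range that spanned both diseased fractions, and its log2 fold changes did not pass.

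The promoters of *Pdcd1*, *Cd274* and *Cd200r4*, 3 of the 4 members higher than WT in both fractions, are shown because these genes rose together. They are RefSeq windows of build GRCm38.p6, from 250 bases before to 50 bases after the gene start, written 5′ to 3′ on the strand of the gene with motif letters in capitals. Such windows were at hand for 7 of the 10 members.
Pdcd1, chr1:94052504-94052803, minus strand: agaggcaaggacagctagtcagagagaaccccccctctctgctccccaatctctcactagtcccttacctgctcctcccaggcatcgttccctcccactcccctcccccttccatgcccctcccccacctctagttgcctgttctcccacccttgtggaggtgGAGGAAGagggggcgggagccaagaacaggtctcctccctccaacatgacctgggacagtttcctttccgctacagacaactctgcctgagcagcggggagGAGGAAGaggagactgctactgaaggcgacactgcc
Cd274, chr19:29367188-29367487, plus strand: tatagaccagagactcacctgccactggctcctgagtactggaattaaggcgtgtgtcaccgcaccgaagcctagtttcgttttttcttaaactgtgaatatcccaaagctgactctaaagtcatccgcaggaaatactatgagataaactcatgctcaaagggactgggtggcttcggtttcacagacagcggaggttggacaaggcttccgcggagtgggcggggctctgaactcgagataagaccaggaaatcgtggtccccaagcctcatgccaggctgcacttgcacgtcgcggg
Cd200r4, chr16:44820478-44820777, plus strand: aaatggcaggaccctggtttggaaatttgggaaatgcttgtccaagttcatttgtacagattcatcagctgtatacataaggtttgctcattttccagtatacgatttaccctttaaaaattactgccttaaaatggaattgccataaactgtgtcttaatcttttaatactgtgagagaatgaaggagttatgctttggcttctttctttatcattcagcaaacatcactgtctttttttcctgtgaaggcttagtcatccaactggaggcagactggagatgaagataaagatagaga
The motifs searched on both strands were GAS (TTCNNNGAA), the ISRE core (GAAA, any 2 bases, GAAA), AP-1 (TGANTCA) and the PU.1 core (GAGGAAG), with no overlap between motifs in these windows. *Pdcd1* held 2 PU.1 cores, and *Cd274* and *Cd200r4* held none of the 4 motifs. Among the other members *Lgals9* held 2 ISRE cores and 1 PU.1 core and *Havcr2* held 1 AP-1 motif and 1 PU.1 core. Of all 32851 promoter windows 8.30% held GAS, 3.44% the ISRE core, 7.81% AP-1 and 13.6% the PU.1 core, so these matches describe the letters and no more.

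*Vsir* was at 859, 924, 1016 and 782 CPM in WT, above every diseased library. It fell by 0.80 ± 0.16 (adjusted p = 0.00313) in LAG-3-high and by 0.65 ± 0.16 (adjusted p = 0.0134) in LAG-3-low cells on the log2 scale. *Cd47* was at 261, 271, 289 and 303 CPM in WT and also lay above every diseased library. Its log2 fold change was -1.07 ± 0.17 (adjusted p = 0.000648) in LAG-3-high and -0.39 ± 0.17 (adjusted p = 0.129) in LAG-3-low cells.

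*Sirpa* was at 993, 1788, 1511 and 1067 CPM in WT. LAG-3-high libraries all lay above them (log2 fold change 1.09 ± 0.18, adjusted p = 0.000779), while LAG-3-low libraries fell within the WT range. The lowest WT values were those of replicates 1 and 4, the libraries with the most negative length slopes, and the *Sirpa* transcript is 4.566 kb long. With offsets for transcript length and GC content *Sirpa* was at -0.29 (adjusted p = 0.318) in LAG-3-high against WT, where the offsets also moved the median of all genes by -0.44. *Lgals9* overlapped between LAG-3-high and WT, at 156 to 314 CPM in WT, and passed with a log2 fold change of 0.58 ± 0.22 (adjusted p = 0.0697). Its adjusted p lay between 0.106 and 0.135 without WT replicate 2 or 4 or without LAG-3-high replicate 1, 3, 4 or 5. With WT replicates 1 and 4 both left out, an alternative chosen after the data were seen, 7 members passed in LAG-3-high and 5 in LAG-3-low against WT, and of those called with all libraries only *Lgals9* was lost (0.40, adjusted p = 0.190).

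No checkpoint gene passed the test between LAG-3-/- and LAG-3+/+ microglia at P120 by edgeR, by DESeq2 or at an unadjusted p under 0.05. Of 18669 genes 2, or 0.0107%, passed by edgeR, *Lag3* among them (log2 fold change -7.68, adjusted p = 0.00484), while 134 passed by DESeq2 and 551 had an unadjusted p under 0.05. Neutrophil markers summed to 1743 to 2576 CPM in LAG-3+/+ and 2.68 to 6.58 CPM in LAG-3-/- libraries at this age, with 0 of 10 passing, and their part was not tested. A p that misses the threshold does not show equal levels, so the intervals matter more. *Havcr2* had a log2 fold change of -0.04 with a 95% interval from -0.44 to 0.37. *Sirpa* was at 0.05 (-0.51 to 0.61), and *Vsir* at 0.17 (-0.35 to 0.69). The intervals of these 3 receptors thus stayed within 0.69 log2 units of 0 on either side. Without TMM factors *Havcr2* was at 0.07.

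Wider intervals were left by the remaining members. *Cd47* stood at -0.26 (-0.90 to 0.38), *Lgals9* at -0.37 (-0.93 to 0.18) and *Pdcd1* at -0.12 (-0.98 to 0.73). *Cd200r1* was at -0.50 (-1.36 to 0.36) and *Cd274* at 0.45 (-0.50 to 1.40). *Lilrb4a*, at 0.10, had an interval from -1.20 to 1.39, since LAG-3-/- libraries held 325, 1423 and 216 CPM against 734, 717 and 386 CPM in LAG-3+/+. *Cd200r4*, at 0.51 (-2.13 to 3.16), was at 0, 45.4 and 11.03 CPM in LAG-3-/- and 17.7, 9.75 and 12.1 CPM in LAG-3+/+. In both genes LAG-3-/- replicate 2 was the high library. Without it *Lilrb4a* was at -1.18 and *Cd200r4* at -1.26. *Cd47* was the only member whose groups did not overlap, as did those of 11.5% of all genes, with 117, 114 and 116 CPM in LAG-3-/- below 121, 146 and 148 CPM in LAG-3+/+.

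At P140 LAG-3-/- microglia held more *Sirpa* and less *Cd200r1* RNA than LAG-3+/+ microglia, and the other 8 members did not pass. Across all genes 10.2% passed. The median log2 fold change of the members was -0.41, beside 0.14 over all genes. By level 4 members and 21.1% of all genes did not overlap between the genotypes. The microglia marker sums overlapped (25945 to 41232 CPM in LAG-3-/- and 37070 to 44622 CPM in LAG-3+/+), and of the 9 markers *Csf1r* (1.54) and *Sall1* (1.12) rose. Neutrophil markers ranged from 4.02 to 4616 and from 3.84 to 3482 CPM. Monocyte and border macrophage markers summed to 47.0 to 201 CPM in LAG-3-/- and 109 to 150 CPM in LAG-3+/+ libraries. Of the 6 tested, *Ccr2* passed by edgeR (8.67, adjusted p = 0.0854), and 3 had negative estimates. Oligodendrocyte markers summed to 52.9 to 64.4 CPM in LAG-3-/- and 78.6 to 91.8 CPM in LAG-3+/+ libraries. The part of these markers was not tested.

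*Sirpa* was at 1160, 2465 and 1935 CPM in LAG-3-/- and at 758, 554 and 504 CPM in LAG-3+/+ microglia. All LAG-3-/- libraries were higher, with a log2 fold change of 1.61 ± 0.26 (adjusted p = 0.0205), and *Sirpa* passed with any of the 6 libraries left out (adjusted p from 0.000529 to 0.0943). *Sirpa* levels ran with the length slope of the libraries, shown in the plot of *Sirpa* against length dependence. The 3 LAG-3+/+ libraries of P140 and LAG-3-/- replicate 1, the 4 lowest for *Sirpa*, were the 4 with negative slopes. With length and GC offsets the log2 fold change was 0.76 (adjusted p = 0.0635), and these offsets moved the median of all genes by -0.16. A fit of the 6 P140 libraries alone gave 1.62 with an adjusted p of 0.207, in a fit that passed 0 genes, *Lag3* included.

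*Cd200r1* was at 46.5, 38.0 and 15.3 CPM in LAG-3-/- and at 58.6, 85.0 and 109 CPM in LAG-3+/+ microglia. The genotypes did not overlap, and *Cd200r1* fell by 1.34 ± 0.40 on the log2 scale (adjusted p = 0.0811). Its adjusted p was 0.171 and 0.207 without LAG-3+/+ replicate 2 or 3, 0.209 and 0.211 without LAG-3-/- replicate 2 or 3, and 0.133 with length and GC offsets (log2 fold change -1.13). *Cd200r4* was at 34.7, 46.3 and 30.0 CPM in LAG-3-/- below 73.6, 77.2 and 76.4 CPM in LAG-3+/+. Its groups did not overlap either, and its log2 fold change of -1.03 ± 1.21 did not pass (adjusted p = 0.657).

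*Pdcd1* was at 203, 208 and 134 CPM in LAG-3-/- below 274, 315 and 329 CPM in LAG-3+/+, without overlap (log2 fold change -0.75, 95% interval -1.61 to 0.11, adjusted p = 0.264). *Havcr2* had 457, 379 and 306 CPM against 412, 341 and 454 CPM and a log2 fold change of -0.08 (-0.48 to 0.32), or 0.21 without TMM factors. For *Havcr2* the genotypes shared their range at both ages. *Vsir* stood at -0.37 (-0.89 to 0.15) and *Lilrb4a* at 0.07 (-1.23 to 1.36), or -0.03 with RLE size factors.

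Of the ligands, *Cd274* was at 65.3, 70.3 and 81.9 CPM in LAG-3-/- within the LAG-3+/+ spread of 88.2, 20.2 and 39.7 CPM (log2 fold change 0.55, -0.40 to 1.51, and -0.00 with length and GC offsets). Without LAG-3+/+ replicate 1 it was at 1.28 (adjusted p = 0.0614). *Lgals9* was at 531, 360 and 258 CPM against 671, 525 and 570 CPM, with a log2 fold change of -0.62 ± 0.25 (adjusted p = 0.168), and *Cd47* at 279, 120 and 157 CPM against 333, 198 and 231 CPM (-0.46 ± 0.29, adjusted p = 0.367). In both, LAG-3-/- replicate 1 was the high library of its group. Without it 4 members and 4140 genes passed, against 2 and 1908 with all libraries, with *Lgals9* at -0.93 (adjusted p = 0.0205) and *Cd47* at -0.88 (adjusted p = 0.0327).

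**Figure D2:**
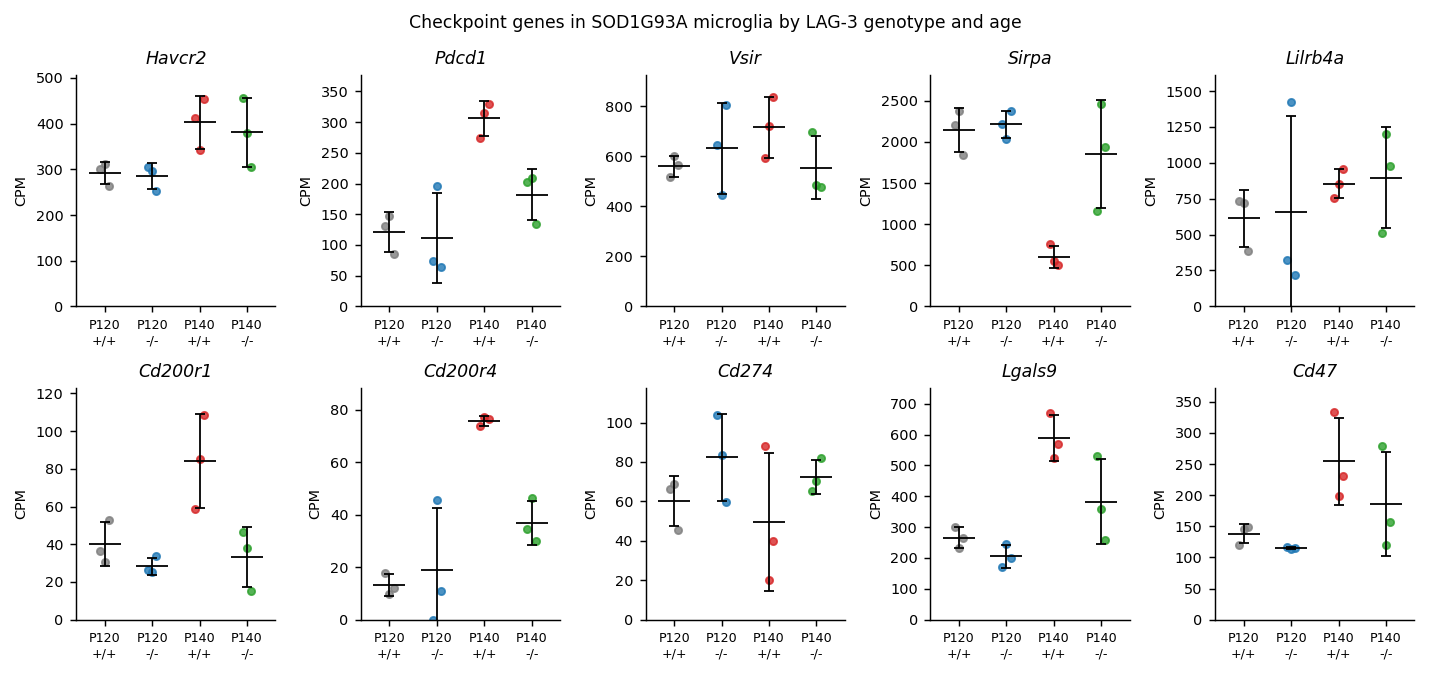
Level (CPM, linear axes from 0) of each checkpoint gene in SOD1G93A microglia of both LAG-3 genotypes at P120 and P140; points are libraries, and bars show mean and SD of 3 libraries. *Sirpa* is lowest in the 3 P140 LAG-3+/+ libraries (504 to 758 CPM), where *Pdcd1* and *Cd200r1* are highest.

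**Figure D3:**
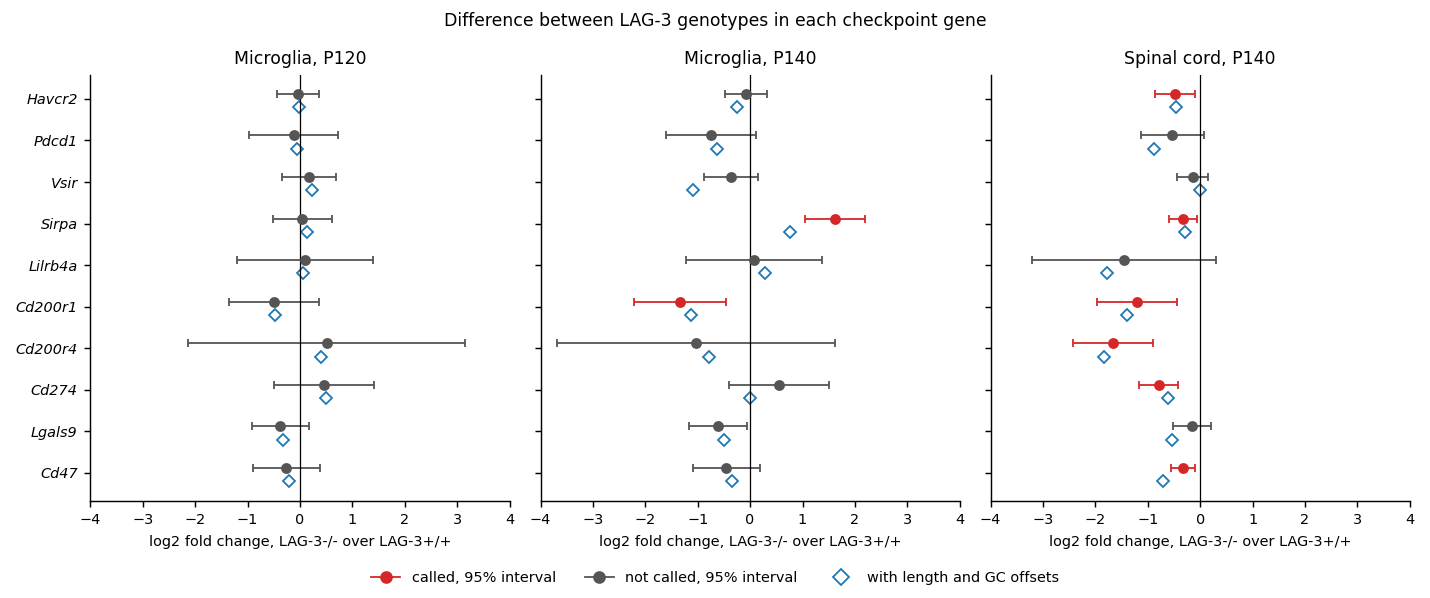
Log2 fold change of LAG-3-/- over LAG-3+/+ for each checkpoint gene in P120 microglia, P140 microglia and P140 spinal cord; circles with bars are edgeR estimates with 95% intervals (red where the adjusted p was under 0.1), and diamonds are the estimates with length and GC offsets. *Sirpa* lies above 0 in P140 microglia (1.61) and below 0 in cord (-0.34), and all 10 cord circles lie below 0.

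**Figure D4:**
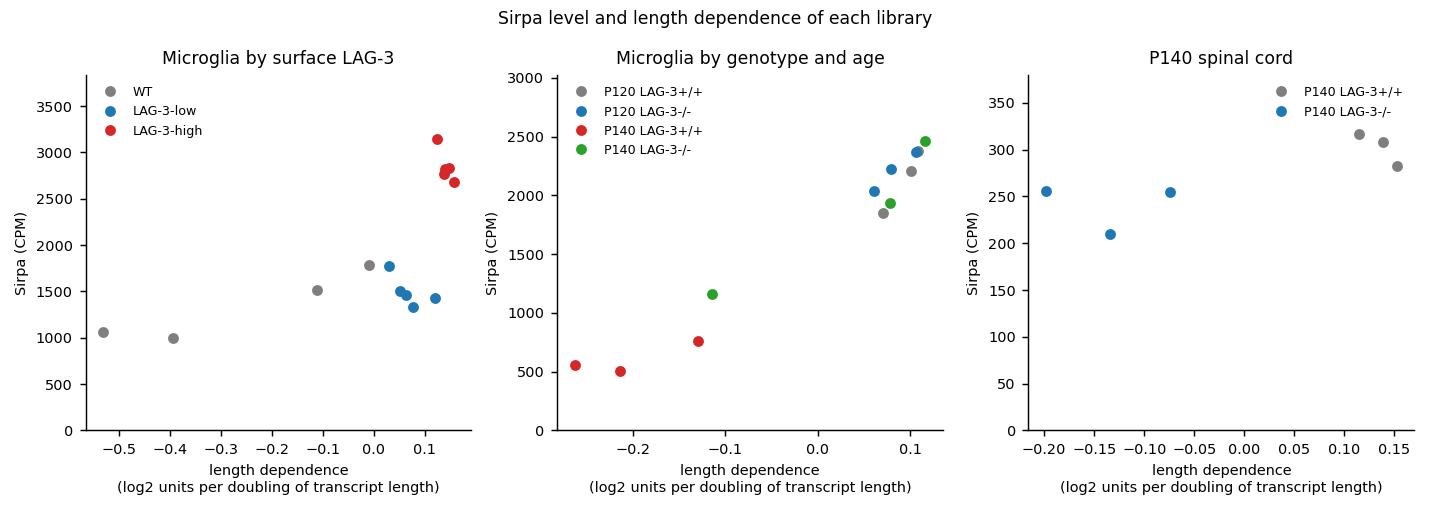
*Sirpa* level (CPM, linear axes from 0) against the length dependence of each library (log2 units per doubling of transcript length) in the 3 tables, coloured by group. In the stage table the 4 libraries of lowest level are the 4 with a negative slope, and in cord the genotypes separate on both axes.

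In LAG-3+/+ microglia *Pdcd1*, *Lgals9*, *Cd200r1* and *Cd47* rose and *Sirpa* fell between P120 and P140, which makes 5 of 10 members beside 27.4% of all genes. The median of the members was 0.68 and that of all genes -0.22. By level 8 members and 42.2% of all genes did not overlap between the ages. These comparisons share the P140 LAG-3+/+ libraries with the genotype comparison at P140, so the values are not independent of those above. Length slopes separated the ages as well, at 0.0705 to 0.108 in P120 and -0.263 to -0.129 in P140 LAG-3+/+ libraries. Transcripts of the members that rose are 1.546 to 1.967 kb long, and that of *Sirpa* is 4.566 kb long. *Vsir*, at 4.846 kb, had an estimate of 0.35 and did not pass. The part of length was not tested beyond the offsets.

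*Pdcd1* rose from 131, 147 and 85.0 CPM to 274, 315 and 329 CPM (log2 fold change 1.34 ± 0.40, adjusted p = 0.0374). All P140 libraries were higher, and without P120 replicate 3 the adjusted p was 0.134 (1.14). *Lgals9* rose from 301, 232 and 264 CPM to 671, 525 and 570 CPM (1.15 ± 0.25, adjusted p = 0.0124), again without overlap, and passed with any library left out. *Sirpa* fell from 2207, 2379 and 1847 CPM by 1.83 ± 0.26 on the log2 scale (adjusted p = 0.00515), and by 0.74 with length and GC offsets (adjusted p = 0.0132).

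*Cd200r1* was at 36.5, 30.4 and 53.0 CPM at P120, below all P140 libraries (1.07 ± 0.40, adjusted p = 0.0824). Its adjusted p lay between 0.156 and 0.236 without P120 replicate 1 or 2 or P140 replicate 2 or 3. *Cd47* rose from 121, 146 and 148 CPM to 333, 198 and 231 CPM (0.88 ± 0.29, adjusted p = 0.0586), and its adjusted p lay between 0.101 and 0.179 without any 1 of the 3 P120 libraries or without P140 replicate 1 or 3. With length and GC offsets neither passed (adjusted p = 0.227 for *Cd200r1* and 0.160 for *Cd47*). *Havcr2* was at 300, 311 and 265 CPM at P120 and 412, 341 and 454 CPM at P140, without overlap, and missed the threshold (0.46 ± 0.18, adjusted p = 0.102, and -0.02 without TMM factors). Microglia markers summed to 26873 to 30455 CPM at P120 and 37070 to 44622 CPM at P140 in LAG-3+/+, where 3 of the 9 rose and 2 fell. Monocyte and border macrophage markers summed to 10.2 to 20.3 CPM at P120 and 109 to 150 CPM at P140, B cell markers to 20.1 to 23.4 and 29.9 to 49.2 CPM, and oligodendrocyte markers to 44.9 to 73.7 and 78.6 to 91.8 CPM. The part of these markers in the differences was not tested.

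In LAG-3-/- microglia 0 members and 0 genes, or 0%, passed by edgeR between P120 and P140. Unadjusted, 1658 genes had a p under 0.05, 3 members among them, and DESeq2 passed 449 genes with *Lgals9* as the only member. *Lgals9* was at 170, 245 and 200 CPM at P120 and 531, 360 and 258 CPM at P140, without overlap (0.90, adjusted p = 0.475). *Cd47* had a log2 fold change of 0.68 (adjusted p = 0.550) and *Havcr2* of 0.42 (adjusted p = 0.555), both without overlap between the ages, which held for 3 members and 14.8% of all genes. Neutrophil markers summed to 2.68 to 6.58 CPM at P120 and 4.02 to 4616 CPM at P140 in LAG-3-/-, and their part was not tested.

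The genotype-by-stage interaction tests whether the change with age differed between genotypes. None of the 10 members passed by edgeR, where 0.171% of all genes did. Unadjusted, 2541 genes had a p under 0.05, with 1 member, *Sirpa*, with an interaction of 1.57 ± 0.36 (adjusted p = 0.176). DESeq2 passed *Sirpa* (1.46, adjusted p = 0.00818), as did edgeR without P140 LAG-3+/+ replicate 1 (1.77, adjusted p = 0.0702), without P140 LAG-3-/- replicate 1 (1.82, adjusted p = 0.00671) or with no filter on low counts (adjusted p = 0.0512). With 1 library left out *Sirpa* passed in 2 of 12 such fits, and its adjusted p over all 12 ran from 0.00671 to 0.414. The interaction draws on the P140 LAG-3+/+ libraries, whose length slopes were -0.263 to -0.129. By the main edgeR test a difference between the genotypes in the change with age was not shown for any of the 10 members.

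In whole cord the members leaned one way: *Cd274*, *Cd200r1*, *Cd200r4*, *Cd47*, *Sirpa* and *Havcr2* were lower in LAG-3-/- than in LAG-3+/+ cord, and the 4 that did not pass also had negative estimates. That is 6 of 10, all lower, in a comparison where 47.1% of all genes passed, 4096 higher and 4234 lower. The median of the members was -0.50, beside 0.00 over all genes. In whole tissue, fewer cells of a type and less RNA per cell cannot be told apart.

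*Cd274* was at 7.72, 6.67 and 7.36 CPM in LAG-3-/- and at 14.4, 9.89 and 13.2 CPM in LAG-3+/+ cord. The genotypes did not overlap (log2 fold change -0.79 ± 0.17, adjusted p = 0.00390). *Cd200r4* was at 1.54, 0.552 and 1.15 CPM against 3.93, 2.45 and 3.67 CPM and fell by 1.66 ± 0.35 on the log2 scale (adjusted p = 0.00371). *Cd200r1* was at 1.26, 0.829 and 0.550 CPM against 1.72, 1.68 and 2.61 CPM and fell by 1.20 ± 0.35 (adjusted p = 0.0188). Both CD200 receptor genes were thus lower in every LAG-3-/- library, at levels near a few CPM.

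*Cd47*, which neurons and glia express broadly, was at 87.9, 92.9 and 78.9 CPM against 103, 114 and 110 CPM (-0.33 ± 0.10, adjusted p = 0.0259). *Sirpa*, which neurons also express, was at 255, 209 and 254 CPM against 316, 283 and 308 CPM (-0.34 ± 0.12, adjusted p = 0.0486). Its adjusted p was 0.160 without LAG-3+/+ replicate 3, 0.199 without LAG-3-/- replicate 2 and 0.107 with length and GC offsets. *Havcr2* was at 14.4, 10.5 and 12.01 CPM in LAG-3-/- against 20.02, 13.1 and 18.02 CPM, and its groups overlapped through LAG-3+/+ replicate 2 (-0.48 ± 0.18, adjusted p = 0.0511). Its adjusted p was 0.187 and 0.151 without LAG-3+/+ replicate 1 or 3, 0.168 and 0.133 without LAG-3-/- replicate 2 or 3, and 0.103 with length and GC offsets.

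*Lilrb4a* was at 5.38, 4.42 and 5.30 CPM against 27.7, 7.27 and 6.40 CPM. LAG-3+/+ replicate 1 stood far above the rest, and the log2 fold change of -1.46 ± 0.68 did not pass (adjusted p = 0.159). Without that library it was -0.45 (adjusted p = 0.0913), and without LAG-3+/+ replicate 3 it was -1.80 (adjusted p = 0.0849). *Pdcd1* was at 6.75, 3.12 and 3.65 CPM against 7.45, 5.55 and 6.40 CPM (-0.53 ± 0.27, adjusted p = 0.147), and without LAG-3-/- replicate 1 it was at -0.94 (adjusted p = 0.00532). *Vsir* (-0.15, adjusted p = 0.417) and *Lgals9* (-0.15, adjusted p = 0.498) overlapped between genotypes. Without LAG-3+/+ replicate 2 *Lgals9* was at -0.33 (adjusted p = 0.0942).

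The microglia markers moved with these genes: they summed to 830 to 1133 CPM in LAG-3-/- and 1152 to 1451 CPM in LAG-3+/+ cord. Of the 9 measured, 4 fell and 1 rose, with a median log2 fold change of -0.33. Astrocyte markers summed to 7416 to 11948 against 12774 to 14609 CPM, and oligodendrocyte markers to 21024 to 29287 against 14889 to 16216 CPM. The length slopes also separated the genotypes completely. The part of marker levels and of length in the cord differences was not tested beyond the offsets, under which *Cd274* (-0.61), *Cd200r1* (-1.40), *Cd200r4* (-1.84) and *Cd47* (-0.70) still passed and *Pdcd1* (-0.88, adjusted p = 0.0432) and *Lgals9* (-0.54, adjusted p = 0.0341) passed in addition.

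**Figure D5:**
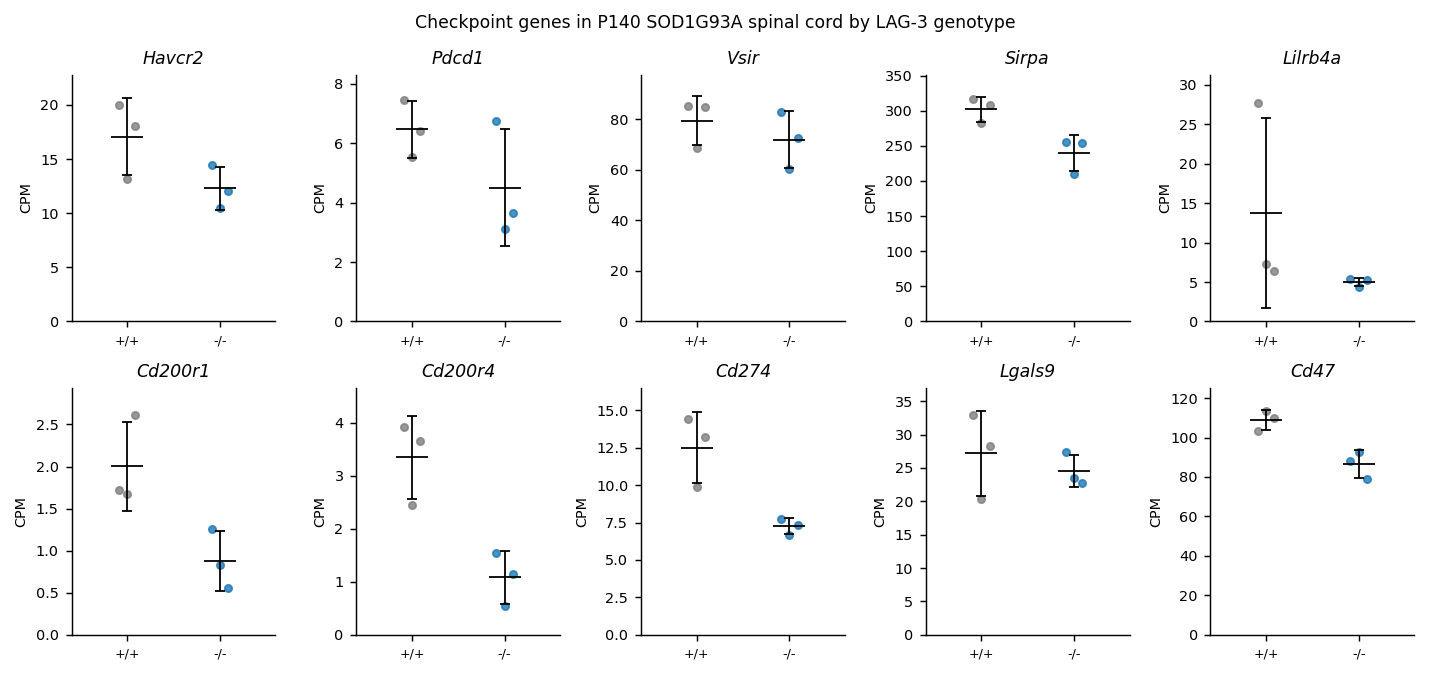
Level (CPM, linear axes from 0) of each checkpoint gene in P140 lumbar cord of SOD1G93A mice of both LAG-3 genotypes; points are libraries, and bars show mean and SD of 3 libraries. The 6 members *Cd274*, *Sirpa*, *Cd200r1*, *Cd200r4*, *Cd47* and *Lilrb4a* do not overlap between genotypes, each lower in LAG-3-/-, in a table where 51.6% of all genes do not overlap.

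A list of 44 other checkpoint genes, made of ligands and partners, related receptors, and adaptors and phosphatases, held 30 tested genes in the LAG-3-sorted table, 31 in the stage table and 29 in the cord table. In LAG-3-high against LAG-3-low cells 1 rose and 5 fell, beside 4.39% of all genes passing. *Cd86*, the ligand of CTLA-4 and CD28, rose by 0.86 (adjusted p = 0.0199). *Sirpb1b* and *Sirpb1c*, relatives of *Sirpa*, had no count in LAG-3-high libraries and were at least 56.3-fold and 54.6-fold lower there, against a floor of 3 counts in the shallowest library. The neutrophil marker sums, at most 9.67 CPM in the same libraries and at least 22825 CPM in LAG-3-low, moved with these genes, and their part was not tested. Against WT, 5 rose and 6 fell in LAG-3-high and 7 rose and 5 fell in LAG-3-low cells, where 30.3% and 24.9% of all genes passed. *Selplg*, which encodes PSGL-1, a binding partner of VISTA, was lower in both (-1.79 and -1.36), and *Lilrb4b*, the near-copy of *Lilrb4a*, was higher in both (4.52 and 5.60). *Tnfrsf14* was lower in both (-2.84 and -2.01). *Sirpb1b* had no count in WT and was at least 45.9-fold higher in LAG-3-low cells, against a floor of 3 counts in the shallowest WT library.

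By genotype at P120, 0 of 31 listed genes passed by edgeR, where 0.0107% of all genes passed. At an unadjusted p under 0.05 the list held 0, beside 551 of all 18669 genes. At P140 2 of 31 rose and 3 fell, where 10.2% of all genes passed, with a list median of 0.12 beside 0.14 over all genes. *Itgav*, which encodes an integrin chain known to associate with CD47, rose by 1.33 (adjusted p = 0.0411), from 39.8, 39.2 and 27.2 CPM in LAG-3+/+ to 59.6, 85.3 and 122 CPM in LAG-3-/-. *Inpp5d*, which encodes the phosphatase SHIP-1, rose by 1.51 (adjusted p = 0.0440), from 149, 149 and 118 CPM to 164, 513 and 507 CPM. The 3 that fell were *Hmgb1*, a ligand of TIM-3 (-0.69, adjusted p = 0.0578), *Pilra*, an inhibitory receptor of myeloid cells (-0.94, adjusted p = 0.0733), and *Cd86* (-0.74, adjusted p = 0.0880).

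Between P120 and P140, 8 of 31 rose and 3 fell in LAG-3+/+, where 27.4% of all genes passed. In LAG-3-/- microglia 0 passed by edgeR, as did 0% of all genes. Unadjusted, 4 of the list had a p under 0.05, beside 1658 of all 18669 genes. The 3 with the smallest adjusted p in LAG-3+/+ were *Itgav* (-2.01), *Hmgb1* (1.13) and *Inpp5d* (-2.07), the direction of each opposite to its genotype difference at P140, which rests on the same LAG-3+/+ libraries. None passed in the interaction by edgeR, where 0.171% of all genes did. Of the list 4 had an unadjusted p under 0.05 there, beside 2541 of all 18669 genes.

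In the cord 0 rose and 14 of 29 fell in LAG-3-/-. Of all 17702 genes 47.1% passed, 4096 higher and 4234 lower. The list median was -0.43 beside 0.00 over all genes. Those that fell were the ligands and partners *Ceacam1* (-0.44), *Cd86* (-0.49), *Igsf11* (-0.43), *Thbs1* (-0.72), *Itgav* (-0.78), *Pvr* (-0.84) and *Tnfrsf14* (-1.30), the receptors *Lilrb4b* (-1.04), *Pirb* (-0.72), *Cd244a* (-1.75), *Lair1* (-0.55) and *Cd300a* (-0.70), and, among the adaptors and phosphatases, *Inpp5d* (-0.63) and *Rasa1* (-0.61). *Itgav* and *Inpp5d* thus rose in LAG-3-/- microglia and fell in LAG-3-/- cord at the same age, as *Sirpa* did. The tables were normalized separately and a difference between them was not tested. The length slopes of LAG-3-/- libraries lay above those of LAG-3+/+ libraries in P140 microglia and below them in cord. The transcripts of *Itgav*, *Inpp5d* and *Sirpa* are 7.392, 4.937 and 4.566 kb long. Values with length and GC offsets are given above for members, *Sirpa* among them. The part of length was not tested for *Itgav* and *Inpp5d*.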

How the data were processed

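RNA-seq of 32 libraries in 9 groups was used, grouped by their titles. The authors trimmed reads with Trim Galore 0.6.7, quantified them with Salmon 1.9.0 against GRCm39 and imported them with tximport under R 4.2.1, and what they deposited is estimated counts by Ensembl gene in 3 tables, without normalization or rounding. The annotation release is not given in the sources used here. Gene names, lengths and coordinates came from GENCODE vM39 on GRCm39. No column was left unmapped to a sample.

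Counts were rounded. Each table was fitted on its own in edgeR 4.0.16 (R 4.3.3) by the quasi-likelihood test with robust dispersions and TMM factors, on genes kept by filterByExpr (count of 10, total of 15). The LAG-3-sorted model held 3 group means, the stage model genotype, stage and their interaction, and the cord model genotype. A gene passed at a Benjamini-Hochberg adjusted p under 0.1 over all genes of its table, and the fold minimum of the study's methods was an alternative. Intervals are 95% intervals of the log2 fold change, and the floor was 3 counts in a library. Per-kb levels used the length of the canonical transcript. The length slope of a library is that of its log2 CPM, less the mean of the table, on log2 transcript length, and length and GC offsets had values for at least 99.9% of tested genes. The fits were tested on simulated data.

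The members and gene lists were chosen with earlier results of these data known. Named genes are the members, *Lag3* and every listed partner gene that passed in a genotype comparison or the interaction. Elsewhere the 3 listed partner genes of smallest adjusted p are named. Marker genes enter as sums, with a few named where their level or fold change is quoted. *Fcrls* of the microglia list was not matched. Library depth is given with the report, and its precision covers counting error only. The replicate number was not used as a pairing. Alternatives were DESeq2 1.42.0, RLE factors, no TMM factors, other filters and thresholds, sex as a covariate, length and GC offsets, fits of 2 groups, a replicate block and each library left out.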

Additional observations from a re-analysis of the deposited data

Results flagged for a closer look

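*Vsir* in LAG-3-high replicate 4, at 415 CPM, and *Lgals9* in LAG-3-low replicate 3, at 303 CPM, lay far from the other 4 libraries of their groups. Of 29 groups of 4 or 5 libraries examined these 2 stood out in this way, and chance gives about 1 in 20.

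*Sirpa* differed between the genotypes in opposite directions in the P140 tissues: 1.61 on the log2 scale in sorted microglia, where every LAG-3-/- library was higher, and -0.34 in whole cord, where every LAG-3-/- library was lower. The tables were normalized separately, and this difference was not tested. The length slopes of the libraries are ordered the same way as *Sirpa* between the genotypes in both tables, and their part was not tested beyond the offsets, which left 0.76 in microglia and -0.28 in cord.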

How the results depend on the processing

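Over the fold changes given one by one, 1080 alternatives kept direction and side of the threshold, 82 lost a call, 36 gained one and 27 changed sign. For the other 32 pairs of member and comparison, 39 of 633 alternative values changed sign and 10 passed. In LAG-3-high against LAG-3-low, 1 member passed with an absolute log2 fold change above 1, and 7 passed in a fit of 2 groups only and with the replicate block. Between genotypes at P140, 1 member passed without TMM factors, at an adjusted p under 0.05, with sex as a covariate, with length and GC offsets or with the replicate block, and 0 in a fit of 2 groups only. Between ages in LAG-3+/+, 2 passed without TMM factors and 3 at an adjusted p under 0.05. DESeq2 passed 1 member between ages in LAG-3-/- and 1 in the interaction, where no filter also passed 1. In cord 2 passed with the fold minimum.

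Leaving out each library in turn gave 2 to 3 members in LAG-3-high against LAG-3-low, 7 to 8 in LAG-3-high and 5 to 6 in LAG-3-low against WT, 0 at P120, 1 to 4 at P140, 3 to 5 between ages in LAG-3+/+ and 0 in LAG-3-/-, 0 to 1 in the interaction and 4 to 7 in cord. *Lag3* in LAG-3-high against LAG-3-low (1.96, adjusted p = 0.0837) passed in none of 10 such fits (adjusted p 0.122 to 0.202), while its level separated the fractions in every library.

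The sign of *Havcr2* changed in LAG-3-high against WT with length and GC offsets (-0.12) and without TMM factors by genotype at P120 (0.068) and P140 (0.21) and between ages in LAG-3+/+ (-0.020). With these offsets *Sirpa* was at -0.29 in LAG-3-high against WT and *Cd274* at -0.0030 between genotypes at P140. *Lilrb4a* at P140 was at -0.025 with DESeq2 or RLE factors and -0.030 with the replicate block, and at P120 the block gave *Lilrb4a* -0.22 and *Cd200r4* -0.015. Without 1 library, ranges at P120 were -0.10 to 0.040 for *Havcr2*, -0.82 to 0.15 for *Pdcd1*, -0.045 to 0.37 for *Vsir*, -0.054 to 0.12 for *Sirpa*, -1.26 to 1.09 for *Cd200r4* and -1.18 to 0.51 for *Lilrb4a*. At P140 they were -0.23 to 0.059 for *Havcr2* and -0.25 to 0.35 for *Lilrb4a*, and in cord -0.33 to 0.0065 for *Lgals9*. The causes were not tested.

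The number of genes passing moved more. DESeq2 gave 1345 in place of 725 in LAG-3-high against LAG-3-low, 134 in place of 2 at P120, 4281 in place of 1908 at P140, 449 in place of 0 between ages in LAG-3-/- and 1301 in place of 32 in the interaction. Fits of 2 groups gave 3467, 2859 and 1803 in the 3 sorted comparisons, where the replicate block gave 3150, 3258 and 2471 and all libraries 725, 5006 and 4110, 31 at P120 and 0 at P140. The block gave 814 genes at P140, offsets 1156 there and 4587 in place of 8330 in cord, and an adjusted p under 0.05 gave 642 at P140. With no filter 2700 passed in LAG-3-low against WT and 179 in the interaction, and the fold minimum left 1331 in cord. In the interaction 14 passed with RLE factors, 9 with offsets, 8 at an adjusted p under 0.05 and 0 with sex as a covariate or the block, and at P120 between 1 and 7 did under the other settings. Without 1 library the count ran from 442 to 633 in LAG-3-high against LAG-3-low, from 3136 to 6448 in LAG-3-low against WT, from 95 to 4140 at P140, from 3218 to 5255 between ages in LAG-3+/+ and from 0 to 1713 in the interaction. With WT replicates 1 and 4 both left out, a setting chosen after seeing the data, 4671 genes passed in LAG-3-high against WT and 3290 in LAG-3-low. The sources used here do not say whether same-numbered libraries share animals. Deviations of same-numbered libraries had an r of at most 0.0674 between sorted groups, 0.0662 between stage groups and 0.0223 in cord, and 6 of 10 libraries of LAG-3-high and LAG-3-low correlated best with their own number. Among the fold changes given one by one the block added the calls of *Havcr2* and *Cd274* in LAG-3-high against LAG-3-low and of *Pdcd1* in cord, and removed those of *Cd200r1* at P140 by genotype and between ages in LAG-3+/+.

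Without TMM factors the median of all genes moved by -0.38 in LAG-3-high against LAG-3-low, -0.31 in LAG-3-high against WT, 0.32 by genotype at P140, -0.49 and -0.26 between ages in LAG-3+/+ and LAG-3-/-, 0.22 in the interaction, 0.10 at P120 and -0.13 in cord. Offsets moved it by -0.44 and -0.43 against WT, -0.16 at P140, 0.29 between ages in LAG-3+/+ and -0.19 in the interaction. The share of calls that were higher went from 36.1% to 9.51% without TMM factors in LAG-3-high against LAG-3-low, from 45.5% to 30.8% (26.6% with offsets) in LAG-3-high against WT, from 48.2% to 27.6% with offsets in LAG-3-low against WT, from 70.6% to 89.4% (38.4% with offsets, 60.4% with RLE) at P140, from 43.4% to 19.1% (68.7% with offsets) between ages in LAG-3+/+ and from 49.2% to 35.5% in cord.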
